A study of Mus musculus with 6 samples.

Results

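The transcripts described here encode the pathway that runs from the insulin receptor through PI3 kinase and AKT to the FOXO transcription factors and the TOR kinase, measured in mouse liver. The pathway was defined by a list of 37 genes, and 36 of them were measured, out of 18194 genes with a probe set on the array that is annotated to 1 gene. For each gene the probe set with the highest mean was read, and all 36 lay among the 12469 genes that were tested. Rps6kb1, which encodes an S6 kinase, has no probe set assigned to 1 gene and was not analysed here. The animals were 3 male GHRH-KO mice, in which the gene of growth hormone-releasing hormone (Ghrh) is disrupted, and 3 male wild-type littermates, called control mice. All 6 animals were of mixed C57BL6 and 129SV background, ate a standard chow and were fasted for 6 to 8 h before death, and the methods give their age as 10 months. The labels name no liver-specific Cre or transgene, and these mice are a model of growth hormone deficiency, so the liver was read in an animal whose endocrine state differs as a whole.

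Insulin binding to its receptor recruits the adaptors IRS1 and IRS2, which activate PI3 kinase and through it AKT. AKT keeps FOXO proteins out of the nucleus and inhibits GSK3, and it releases TOR complex 1 from the restraint of the TSC complex. In liver, nuclear FOXO1 favours genes of glucose production and the gene of the binding protein IGFBP1, whereas TOR complex 1 favours protein and lipid synthesis. Most of this regulation is by phosphorylation and by location of the protein, which an array of RNA does not measure. The 37 genes were therefore read in 3 classes, namely 15 signal carriers, 15 inhibitors of insulin or TOR signalling, and 7 restrained effectors, the proteins that AKT or TOR complex 1 switches off.

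Each array gives an RMA value (robust multichip average, log2) per probe set, and a difference of 1 is a doubling of signal. A transcript was called changed at an adjusted p under 0.05 with a fold change above 1.5 or below 0.67, in limma fitted over 25145 probe sets. Ghrh itself read 4.40, 4.55 and 4.57 in GHRH-KO arrays 4, 5 and 6, against 4.48, 4.41 and 4.75 in control arrays 1, 2 and 3, so it was near background in this tissue and does not check the genotype labels. Correlations between arrays ran from 0.944 to 0.989 across probe sets. Array GHRH-KO 5 and array control 2 stood apart from the rest, with an interquartile range of deviations of 0.357 and 0.316, against 0.185 to 0.249 in the other 4 arrays. Hepatocyte markers were strong on every array, their summed level being 16.70 to 16.72 in GHRH-KO mice and 16.63 to 16.68 in control mice. The summed erythroid markers (Alas2 above background, with Hba-a1 and Slc4a1 near it) lay at 9.42 to 9.91 in GHRH-KO mice and 10.74 to 11.24 in control mice. The summed pancreatic acinar markers (Cela1 and Ctrb1 above background, with Cpa1 and Cel near it) lay at 8.87 to 9.26 in GHRH-KO mice and 10.54 to 11.38 in control mice. The levels of the other 7 cell type lists overlapped between genotypes. The part of these markers in the results below was not tested, and in whole liver fewer cells of a type and less RNA per cell cannot be told apart.

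None of the 36 transcripts was called changed, while 1.76% of all genes tested were (0.786% higher and 0.97% lower in GHRH-KO mice). At an unadjusted p under 0.05, 2 lay higher (Irs2 and Foxo3) and 7 lay lower in GHRH-KO mice (Pik3r1, Rps6kb2, Deptor, Tsc2, Ddit4, Stk11 and Eif4ebp2). These 9 are 25% of the pathway, and 19.3% of all genes passed the same mark (9.15% higher and 10.1% lower). The genotypes did not overlap in 13 transcripts, 4 higher and 9 lower, or 36.1%, beside 28.4% of all genes (12.7% higher and 15.7% lower). Both shares lay near those of all genes. The lowest adjusted p in the pathway was that of Ddit4, at 0.0793.

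**Figure D1:**
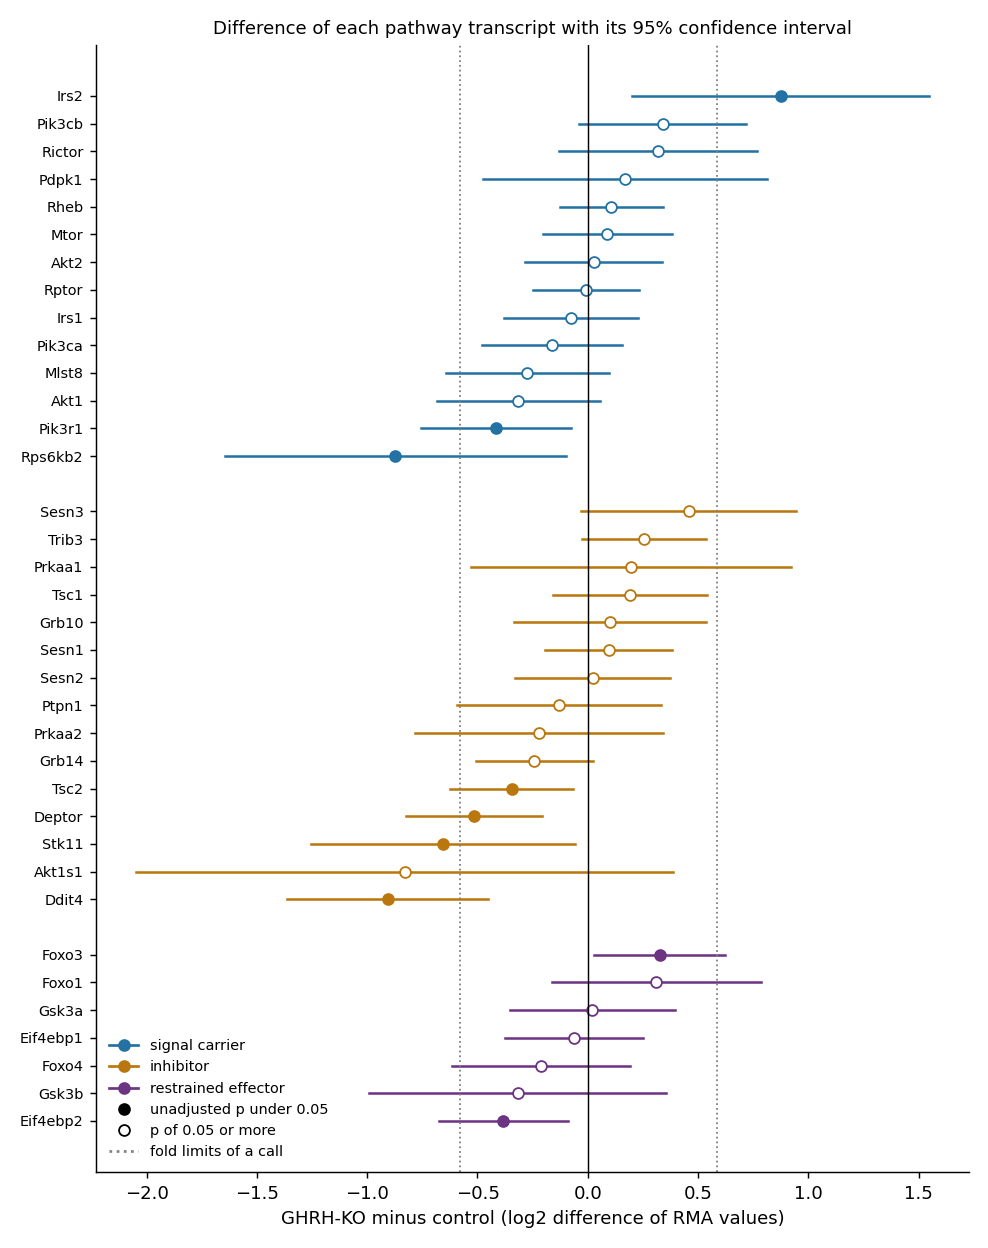
Log2 difference (GHRH-KO minus control) of 36 pathway transcripts with its 95% confidence interval from limma, grouped into signal carriers, inhibitors and restrained effectors. Filled points mark an unadjusted p under 0.05 and dotted lines the fold limits of a call. Most intervals span 0, and among the filled points 2 lie right of 0 (Irs2 and Foxo3) and 7 left of it.

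The classes differed little in their centre. The median log2 difference was 0.01 over the 14 signal carriers measured, -0.13 over the 15 inhibitors and -0.06 over the 7 restrained effectors, beside 0.00 over all genes. Among the inhibitors, 4 lay lower and none higher at an unadjusted p under 0.05 (26.7% lower, beside 10.1% of all genes). The genotypes did not overlap in 7 of 15 inhibitors (1 higher and 6 lower, 46.7%, beside 28.4% of all genes). Among the signal carriers 4 of 14 did not overlap, and among the restrained effectors 2 of 7, each 28.6% and close to the share of all genes. The 95% interval of the difference lay within a 2-fold change either way for 31 of the 36 transcripts, and within 1.5-fold for 14. The other 5 were Irs2, Rps6kb2, Akt1s1, Ddit4 and Stk11.

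At the top of the pathway the 2 insulin receptor substrates gave different pictures. Irs1 read 10.90, 10.89 and 10.90 in GHRH-KO mice, against 11.12, 10.76 and 11.04 in control mice, a log2 difference of -0.07 (95% interval -0.38 to 0.23). The genotypes overlapped, and the GHRH-KO arrays were nearly equal. Irs2 read 6.91, 6.61 and 6.59 in GHRH-KO mice, against 5.43, 6.51 and 5.55 in control mice. Every GHRH-KO value lay above every control value, but array control 2 came within 0.1 of the nearest GHRH-KO value, while the other 2 control arrays lay far lower. The log2 difference of Irs2 was 0.87 (standard error 0.29, adjusted p = 0.182 from limma). When control 2 was left out it became 1.22 with an adjusted p of 0.0433, so the call turns on that array. Irs2 has 1 probe set, and no other reading of it exists here.

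IRS2 is the substrate whose gene is known as a target of FOXO1 in liver, as is the gene of IGFBP1. The promoters of both are shown because both carry the insulin response element TGTTTTG, a FOXO-type motif, within 250 bases before the start of the gene. They were taken from RefSeq (build GRCm38.p6), that of Irs2 from chr8:11008930-11009179 on the minus strand and that of Igfbp1 from chr11:7197537-7197786 on the plus strand, each written 5′ to 3′ in the direction of the gene. Capitals mark the motif, which starts 37 bases before the gene in Irs2. In Igfbp1 it lies on the opposite strand as CAAAACA and starts 108 bases before the gene.
Irs2: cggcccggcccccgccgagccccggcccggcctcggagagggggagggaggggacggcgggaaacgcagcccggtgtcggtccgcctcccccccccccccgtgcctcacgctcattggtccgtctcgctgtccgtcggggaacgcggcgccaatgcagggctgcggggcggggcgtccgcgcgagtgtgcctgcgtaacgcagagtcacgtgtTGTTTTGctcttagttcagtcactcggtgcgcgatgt
Igfbp1: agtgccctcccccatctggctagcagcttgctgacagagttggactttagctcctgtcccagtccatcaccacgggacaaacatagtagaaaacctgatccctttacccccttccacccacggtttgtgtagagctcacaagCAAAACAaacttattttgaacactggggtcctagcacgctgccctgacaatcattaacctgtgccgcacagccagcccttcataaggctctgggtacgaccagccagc
On either strand of these windows the motif TGTTTTG was present in 6.38% of 27025 genes. Of the 33 pathway genes with a promoter in the table it was found in Irs1 and Irs2 (6.06%). The FOXO site TGTTTAC was found in 3.54% of all genes and in the pathway in Akt1 alone, while the CREB site TGACGTCA (1.77% of all genes) and the ATF4 site TGATGCAA (0.918%) were in none of the 33. A match of letters is a description and not a binding site.

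Transcripts of PI3 kinase and AKT had no shared direction. Pik3r1, which encodes the regulatory subunit p85 of PI3 kinase, read 9.45, 9.25 and 9.39 in GHRH-KO mice, against 9.66, 10.03 and 9.64 in control mice. All GHRH-KO values lay lower, with a log2 difference of -0.42 (standard error 0.14, adjusted p = 0.201 from limma). Its 4 probe sets differed in direction, since another of them lay higher in GHRH-KO mice (0.44) and the remaining ones lay lower (-0.52 and -0.19). The catalytic subunits had overlapping genotypes, with a difference of -0.16 for Pik3ca and 0.34 for Pik3cb. The other 4 tested probe sets of Pik3ca, all dimmer, lay above 0, and 2 of them did not overlap (0.48 and 0.53, adjusted p = 0.239 and 0.259 from limma), so the direction of Pik3ca depends on the probe set. Akt1 lay at -0.31 (95% interval -0.68 to 0.06), with 0.22, -0.03 and -0.53 in its dimmer probe sets, the last of which did not overlap. Akt2 lay at 0.03 (95% interval -0.28 to 0.34), and Pdpk1, whose product phosphorylates AKT, at 0.17. A second probe set of Akt2 read 6.37, 6.21 and 6.21 in GHRH-KO mice, against 6.66, 6.67 and 6.71 in control mice, with no overlap and a difference of -0.42 (adjusted p = 0.12 from limma).

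Of the TOR complexes, Mtor, Rptor, Rictor and Mlst8 overlapped between genotypes at their brightest probe sets, while the inhibitors Deptor and Akt1s1, given below, did not. Mtor, the TOR kinase itself, read 8.84, 9.07 and 9.09 in GHRH-KO mice, against 9.0, 8.79 and 8.93 in control mice, a log2 difference of 0.09 with a 95% interval of -0.20 to 0.38. Rptor, the scaffold of TOR complex 1, read 8.24, 8.17 and 8.22 in GHRH-KO mice, against 8.25, 8.19 and 8.21 in control mice. The 6 values of Rptor lay within 0.1 of each other, and the difference was -0.01 (95% interval -0.25 to 0.23). Rictor, the scaffold of TOR complex 2, lay at 0.32 (95% interval -0.13 to 0.77), and 1 array, GHRH-KO 5 at 8.50, stood above its other values of 7.66 to 7.91. Without GHRH-KO 5 the difference of Rictor was 0.11. A dimmer probe set of Rictor read 5.10, 5.33 and 4.89 in GHRH-KO mice, against 5.51, 5.71 and 5.61 in control mice, and so lay the other way with no overlap (-0.50, adjusted p = 0.147 from limma). Mlst8, a subunit of both complexes, lay at -0.28 with overlapping genotypes.

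Rheb, the GTPase that switches TOR complex 1 on, read 10.89, 10.92 and 10.88 in GHRH-KO mice, against 10.79, 10.78 and 10.80 in control mice. The genotypes lay apart by a small step, with replicates close together, and the difference was 0.11 (95% interval -0.13 to 0.34, adjusted p = 0.597 from limma). Rps6kb2, the S6 kinase that could be read, gave 5.85, 4.69 and 5.94 in GHRH-KO mice, against 6.12, 6.46 and 6.52 in control mice. The GHRH-KO values lay lower with a wide spread, and that of GHRH-KO 5 was below the 4.75 that Ghrh reached in control mice. The difference was -0.87 (standard error 0.33, adjusted p = 0.231 from limma). It was -0.47 without GHRH-KO 5.

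**Figure D2:**
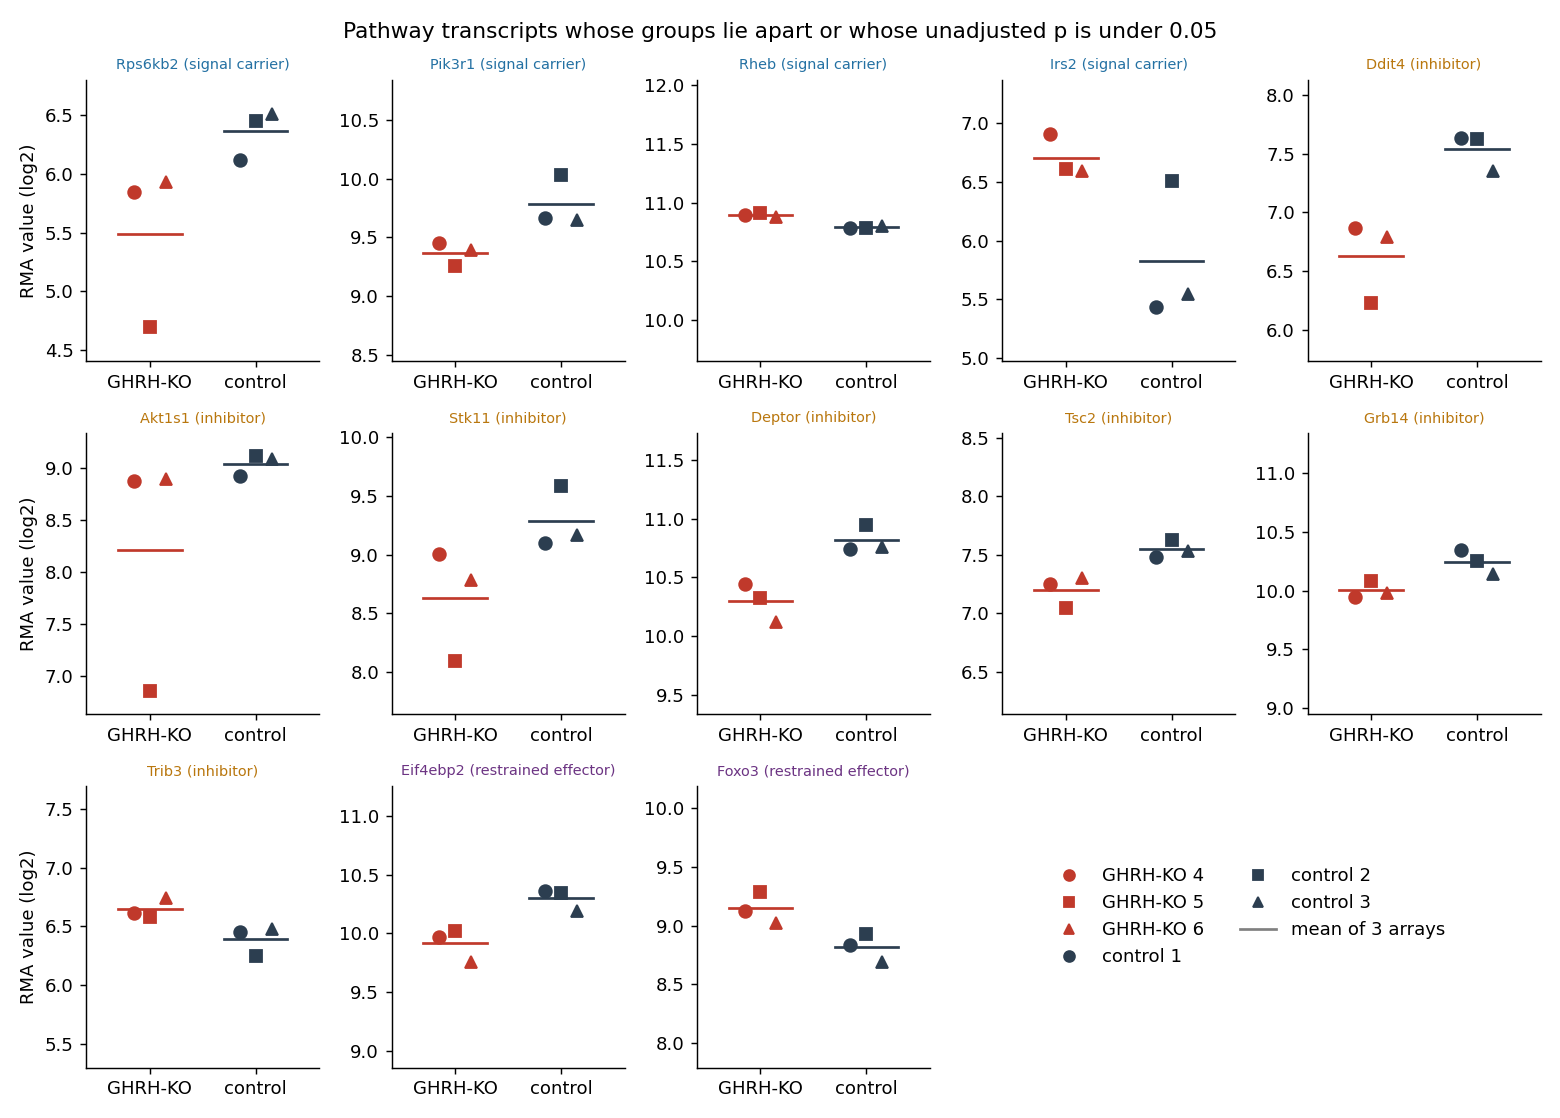
RMA value (log2) in each array for the 13 pathway transcripts whose genotypes did not overlap, which include all those with an unadjusted p under 0.05, with GHRH-KO mice left and control mice right and a line at the mean of 3 arrays. Symbols identify the arrays. In Rps6kb2, Akt1s1, Stk11 and Ddit4 the lowest point is GHRH-KO 5, and in Irs2 the control point nearest to the GHRH-KO values is control 2.

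The lowest adjusted p of the pathway was that of an inhibitor of TOR signalling. Ddit4 encodes REDD1, a protein induced by hypoxia, stress and glucocorticoids that restrains TOR complex 1 through the TSC complex. It read 6.87, 6.23 and 6.79 in GHRH-KO mice, against 7.63, 7.63 and 7.35 in control mice. The genotypes were well apart, and Ddit4 averaged 6.63 ± 0.35 in GHRH-KO mice and 7.54 ± 0.16 in control mice (SD, n = 3 each). The difference was -0.91 (standard error 0.19, adjusted p = 0.0793 from limma), a level lower by a factor of 1.88, which missed the threshold. Leaving out any 1 array gave differences of -1.03 to -0.71 and an adjusted p of 0.0878 or more. With arrays weighted by their quality Ddit4 passed (adjusted p = 0.0362 from limma). That weighted fit called more genes of every kind, 248 higher and 288 lower, where the main fit called 98 and 121. It leaned on GHRH-KO 6 (weight 3.35), while GHRH-KO 5 had a weight of 0.399.

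Deptor encodes an inhibitory subunit of both TOR complexes. It read 10.44, 10.33 and 10.12 in GHRH-KO mice, against 10.74, 10.94 and 10.76 in control mice, with no overlap. The difference was -0.52 (standard error 0.13, adjusted p = 0.114 from limma). All 5 tested probe sets of Deptor lay lower in GHRH-KO mice, with differences of -0.64, -0.53, -0.52, -0.35 and -0.31, and 4 of them had no overlap. With array weights Deptor passed the threshold as well (difference -0.58, adjusted p = 0.0427). Akt1s1 encodes PRAS40, the AKT substrate that inhibits TOR complex 1, and read 8.87, 6.85 and 8.89 in GHRH-KO mice, against 8.92, 9.11 and 9.08 in control mice. Only GHRH-KO 5 stood far below, and the difference of -0.83 (95% interval -2.05 to 0.39) became -0.15 without it.

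The TSC complex holds RHEB in its inactive form. Tsc2, its GTPase-activating subunit, read 7.25, 7.05 and 7.30 in GHRH-KO mice, against 7.48, 7.63 and 7.53 in control mice. All GHRH-KO values lay lower, by -0.35 (standard error 0.12, adjusted p = 0.199 from limma). Its partner Tsc1 lay at 0.19 with overlapping genotypes, so the 2 subunits had opposite signs. Stk11 encodes LKB1, the kinase that activates AMPK, and read 9.01, 8.09 and 8.78 in GHRH-KO mice, against 9.10, 9.58 and 9.17 in control mice. The genotypes lay apart by less than 0.1, and the difference was -0.66 (standard error 0.25, adjusted p = 0.243 from limma), or -0.39 without GHRH-KO 5. The catalytic subunits of AMPK, the kinase that senses low energy and inhibits TOR complex 1, overlapped, at 0.20 for Prkaa1 (95% interval -0.53 to 0.92) and -0.22 for Prkaa2.

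The sestrins are stress-induced proteins that restrain TOR complex 1, and their transcripts overlapped between genotypes at 0.09 for Sesn1, 0.02 for Sesn2 and 0.46 for Sesn3. A second probe set of Sesn1 did not overlap and lay at 0.44 (adjusted p = 0.139 from limma). Inhibitors nearer the receptor were mixed. Grb14, an adaptor that blocks the insulin receptor kinase, read 9.95, 10.09 and 9.98 in GHRH-KO mice, against 10.34, 10.25 and 10.15 in control mice, a difference of -0.24 (95% interval -0.51 to 0.02). Trib3, a pseudokinase that binds AKT, read 6.62, 6.58 and 6.74 in GHRH-KO mice, against 6.45, 6.25 and 6.48 in control mice, a difference of 0.26 (95% interval -0.03 to 0.54). Both had no overlap at these probe sets and neither passed the test. A second tested probe set of Trib3, of nearly the same level, overlapped and lay at 0.14. Grb10, a relative of Grb14, lay at 0.10 and Ptpn1, the phosphatase PTP1B of the receptor, at -0.13, both with overlap.

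Among the restrained effectors, 2 of the 3 FOXO transcripts averaged higher in GHRH-KO mice. Foxo3 read 9.12, 9.29 and 9.03 in GHRH-KO mice, against 8.84, 8.93 and 8.69 in control mice. Its values did not overlap, and the difference was 0.33 (standard error 0.13, adjusted p = 0.241 from limma), with 0.28 and no overlap in its other tested probe set. Foxo1, the main FOXO factor of hepatocytes, read 8.92, 9.55 and 9.17 in GHRH-KO mice, against 8.79, 9.19 and 8.72 in control mice. These overlapped through control 2, and the difference was 0.31 (95% interval -0.16 to 0.79). The 3 tested probe sets of Foxo1 lay between 0.29 and 0.34. Foxo4 lay at -0.21 with overlap.

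GSK3, which AKT inhibits and which phosphorylates glycogen synthase, and the 4E-BPs, which bind eIF4E until TOR complex 1 phosphorylates them, form the rest of this class. Gsk3a lay at 0.02 (95% interval -0.35 to 0.39) and Gsk3b at -0.32 (95% interval -0.99 to 0.35), and the 6 probe sets of Gsk3b ran in both directions. Eif4ebp2 read 9.97, 10.02 and 9.75 in GHRH-KO mice, against 10.36, 10.35 and 10.19 in control mice. All its GHRH-KO values lay lower, by -0.38 (standard error 0.12, adjusted p = 0.18 from limma), and the other 3 tested probe sets also lay lower (-0.50, -0.98 and -0.26). In each of these 3 the lowest value was that of GHRH-KO 5 (7.17, 4.75 and 5.23). The probe sets at -0.50 and -0.26 overlapped between genotypes. Eif4ebp1 lay at -0.06 with overlap, while a second probe set of nearly the same level lay at -0.32 with no overlap (adjusted p = 0.309 from limma) and a dimmer one at 0.21.

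**Figure D3:**
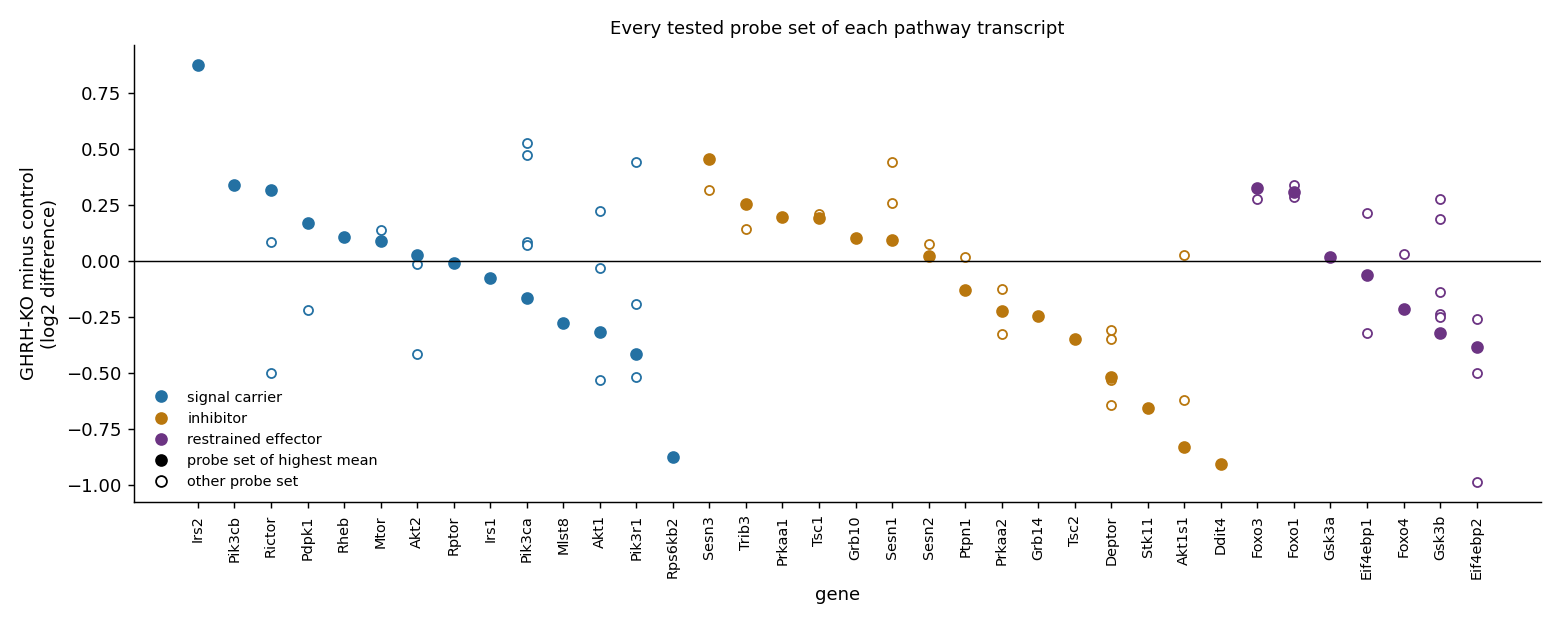
Log2 difference (GHRH-KO minus control) of every tested probe set of each pathway gene. Filled points are the probe sets of highest mean and open points the others. The probe sets of Deptor and Eif4ebp2 lie all below 0 and those of Foxo1 and Foxo3 all above it, while those of Pik3r1, Gsk3b and Akt1 lie on both sides.

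The array carries 98 probe sets for the pathway genes, 81 of which were tested and none of which was called. Of the 22 genes with more than 1 tested probe set, 11 had all of them in the same direction. Variation among animals was uneven. Array GHRH-KO 5 was the one farthest from its genotype mean in 16 of 36 transcripts and control 2 in 9, while the other 4 arrays were farthest in 1 to 4 transcripts each. These are the arrays that also stood apart over all genes. Without both of them 1 pathway transcript lay higher and 4 lay lower at an unadjusted p under 0.05, and none was called. In that fit 6.26% of all genes lay higher and 9.42% lower at the same mark.

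**Figure D4:**
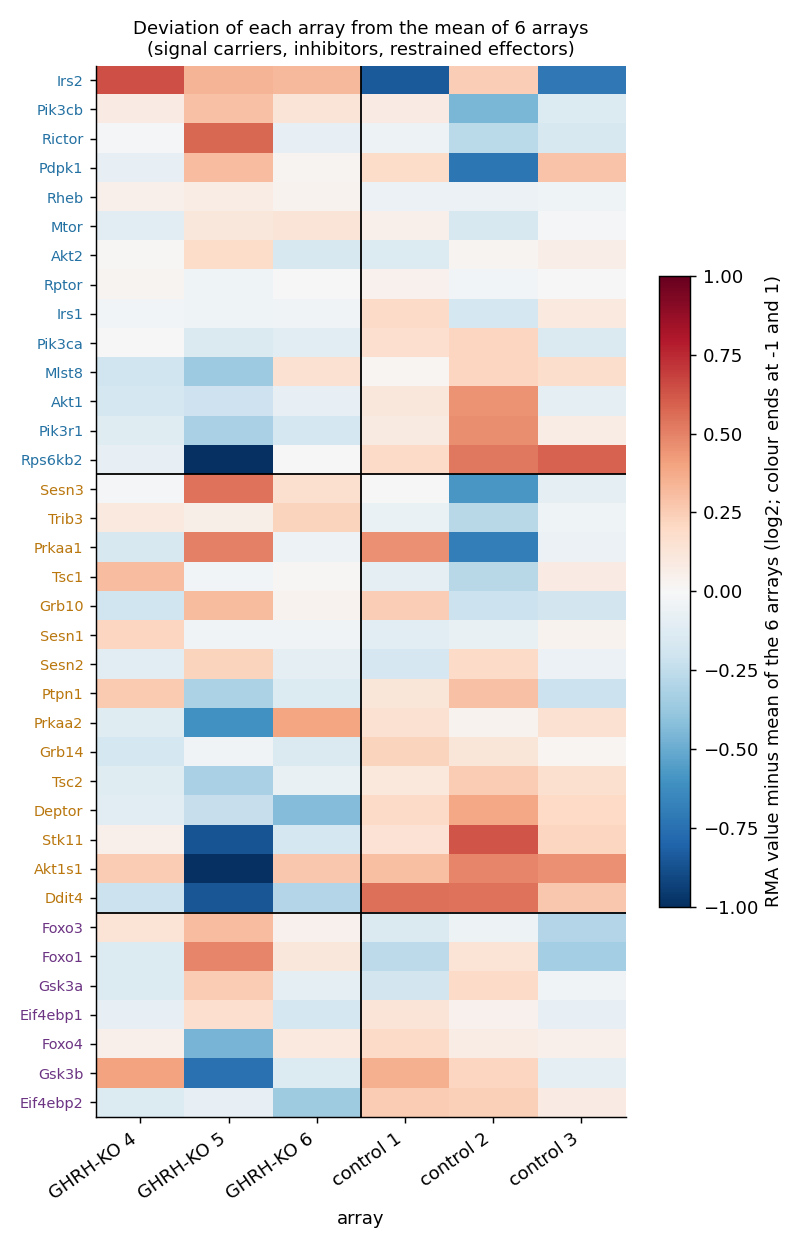
RMA value minus the mean of the 6 arrays (log2) for 36 pathway transcripts in each array, with GHRH-KO arrays left of the vertical line and control arrays right of it. Red is above the mean and blue below, and colours end at -1 and 1. The deepest blues are those of GHRH-KO 5 in Akt1s1 and Rps6kb2.

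Few genes around the pathway were called. Of 45 other genes of the TOR and AMPK network tested, 1 was called. Camkk2, a kinase that activates AMPK in response to calcium, fell to 6.61, 6.25 and 6.44 in GHRH-KO mice, against 7.26, 7.38 and 7.07 in control mice (log2 difference -0.80, standard error 0.14, adjusted p = 0.0499 from limma). Camkk2 passed by a narrow margin, and when any 1 array was left out its difference was -0.89 to -0.71 and the call was lost (adjusted p = 0.0743 to 0.158 from limma). At an unadjusted p under 0.05, 3 of the 45 lay higher and 7 lower (6.67% and 15.6%, beside 9.15% and 10.1% of all genes). Among the lower ones were the translation factors Eif4b (-0.37) and Eef2 (-0.39) and Lamtor4, a subunit of the lysosomal anchor of TOR complex 1 (-0.43, adjusted p = 0.0997 from limma). Among the higher ones were the folliculin partners Fnip1 (0.77) and Fnip2 (0.76). The median difference of these 45 genes was -0.07.

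Of 31 other genes of insulin signalling tested, none was called. Of these, 2 lay higher and 6 lay lower at the unadjusted mark of 0.05 (6.45% and 19.4%, beside 9.15% and 10.1% of all genes). The insulin receptor gene Insr read 10.41, 10.26 and 10.13 in GHRH-KO mice, against 9.86, 9.65 and 9.97 in control mice, a difference of 0.44 (adjusted p = 0.164 from limma) with no overlap. Ptpn2, a tyrosine phosphatase, lay at 0.61, while Foxk2, a forkhead factor, lay at -0.59 (adjusted p = 0.0838 from limma) and Pik3r3, a regulatory subunit of PI3 kinase, at -0.74. Of 14 genes that insulin induces through SREBP1c, none was called, and 2 lay higher and 3 lay lower at that mark (14.3% and 21.4%). Srebf1, which encodes SREBP1, read 11.06, 9.80 and 10.69 in GHRH-KO mice, against 11.44, 11.36 and 11.52 in control mice (-0.92, adjusted p = 0.182 from limma), whereas Thrsp, a lipogenic gene of the same list, lay at 0.52 (adjusted p = 0.0762 from limma). Acacb lay at -1.18 and Acaca at 0.66, so the isoforms of acetyl-CoA carboxylase had opposite signs.

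Genes listed as FOXO targets in liver lay mostly higher in GHRH-KO mice. Of 30 such genes, all tested, 25 had a difference above 0, beside 50.5% of all genes. At an unadjusted p under 0.05, 13 lay higher and 1 lower, so 43.3% lay higher where 9.15% of all genes did. Their median log2 difference was 0.36, and 13 lay higher and 3 lower with no overlap between genotypes (53.3%, beside 28.4% of all genes, of which 12.7% were higher and 15.7% lower). The list includes 5 pathway genes (Irs2, Sesn1, Sesn3, Rictor and Eif4ebp1), and without them 12 of 25 genes lay higher and 1 lay lower at the same mark. Many of these genes also respond to fasting hormones other than insulin, and the list was not tested as a set. The list was also chosen with earlier results of these data known, so its shares are a description and not independent support.

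Igfbp1 was the only gene of this list that was called. It encodes a binding protein of IGF1 whose gene insulin represses in liver, and it rose to 11.88, 11.56 and 10.50 in GHRH-KO mice, against 6.93, 7.52 and 5.83 in control mice. The genotypes were far apart, and the difference was 4.55 (standard error 0.49, adjusted p = 0.00829 from limma). With any 1 array left out it stayed called, with differences of 4.09 to 4.96. The other genes had smaller differences. Ppargc1a, the coactivator PGC-1alpha of gluconeogenesis, read 8.25, 8.67 and 8.10 in GHRH-KO mice, against 7.54, 7.20 and 6.98 in control mice, a difference of 1.10 (adjusted p = 0.0561 from limma). Pck1, the PEPCK of gluconeogenesis, read 13.05, 13.22 and 13.08 in GHRH-KO mice, against 12.22, 12.78 and 12.50 in control mice, a difference of 0.62 (adjusted p = 0.125 from limma). Txnip, an inhibitor of glucose uptake, lay at 0.87, and G6pc, the glucose-6-phosphatase, at 0.52 (adjusted p = 0.203 from limma). None of these 4 overlapped between genotypes.

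Against the direction of the list, the transcriptional repressor gene Bcl6 read 9.53, 8.49 and 8.71 in GHRH-KO mice and 10.21, 10.43 and 10.23 in control mice. Its difference was -1.38 (standard error 0.26, adjusted p = 0.0603 from limma) with no overlap. Bcl6 is also a known growth hormone-regulated gene of male mouse liver. A role of growth hormone in the difference of Bcl6, Igfbp1 or the other genes of the list was not tested. Of the 24 genes of this list with a promoter in the table, the motif TGTTTTG printed above was found in Ccng2, G6pc, Igfbp1 and Irs2 (16.7%, beside 6.38% of all genes) and TGTTTAC in Bcl2l11 and Txnip (8.33%, beside 3.54%). TGTTTTG was added after the promoters were seen, and those of Irs2 and Igfbp1 were printed because they carry it. Its share in this list is therefore partly fixed by that choice and is no independent support.

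**Figure D5:**
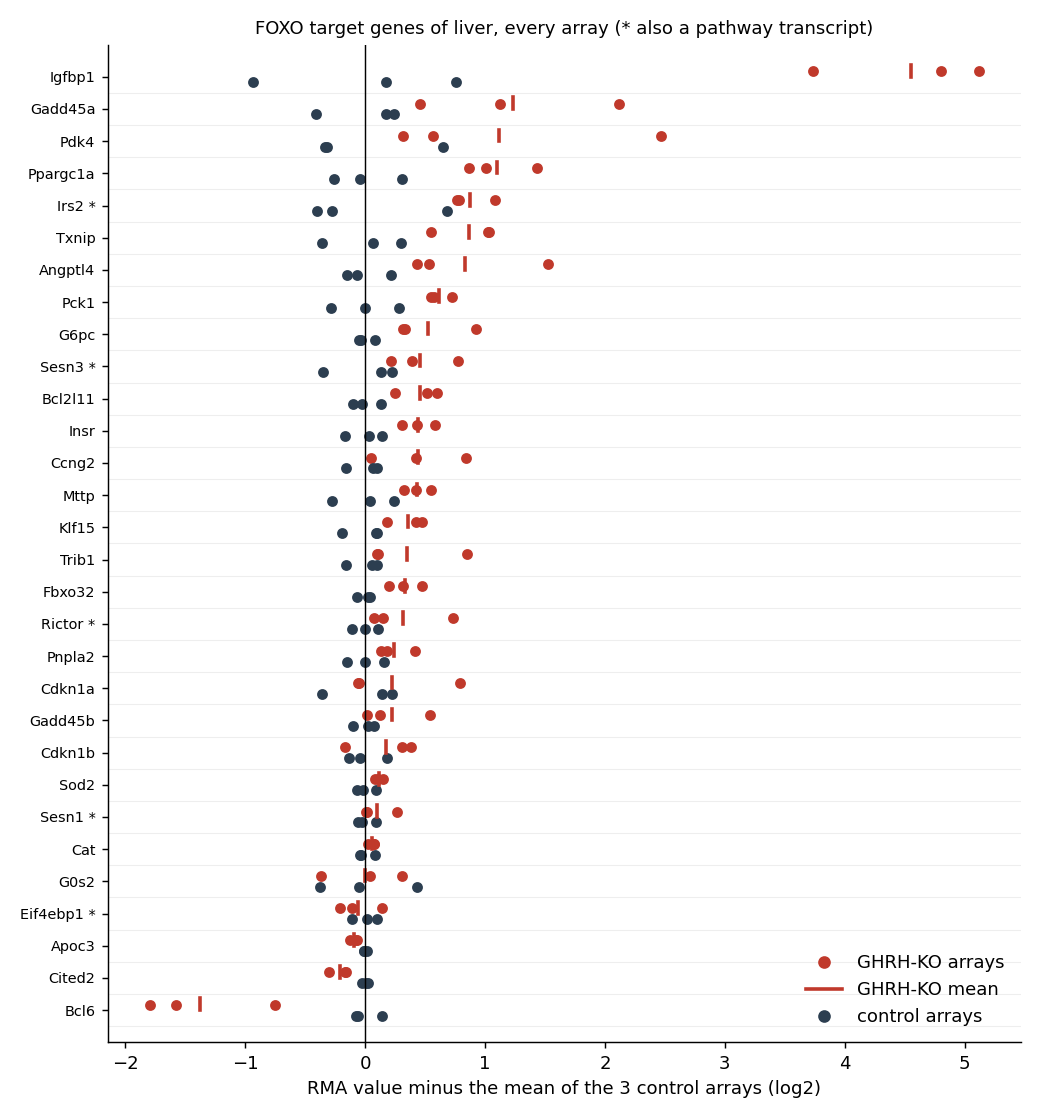
RMA value of each array minus the mean of the 3 control arrays (log2) for 30 FOXO target genes of liver, with GHRH-KO arrays in red above control arrays in dark blue in each row and a red bar at the GHRH-KO mean. The GHRH-KO mean lies right of 0 in 25 genes, farthest in Igfbp1 (4.55), and left of it in 5, farthest in Bcl6 (-1.38).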

How the data were processed

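Hepatic gene expression was measured on Affymetrix Mouse Genome arrays, 1 array per animal. The authors computed the deposited log2 values by RMA, as the submitters' processing notes also name it, which subtracts background, makes array distributions alike and summarises each probe set, so a shift shared by most transcripts cannot be seen. The version of RMA is not given in the sources used here. The table holds 45101 probe sets. The detection filter of the methods cannot be repeated from RMA values, so after removal of 64 control probe sets the 25145 of highest mean were kept, as many as the methods kept. The difference GHRH-KO minus control was estimated by lmFit and eBayes of limma (version 3.58.1, under R 4.3.3) over all 6 arrays with no covariates and Benjamini-Hochberg adjustment over the 25145. The fit was checked only on simulated data with the same noise on every array. That check does not cover arrays of uneven spread, nor differences smaller than those that were planted.

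Of the probe sets, 34958 were annotated to 1 gene, 932 to several and 9211 to none. Members, classes and gene lists were chosen with earlier results of these data known. Values per array are given for members that were called, had an unadjusted p under 0.05 or did not overlap. The other members are given by difference, with Mtor, Rptor, Rictor, Akt1, Akt2, Foxo1, Gsk3a, Gsk3b and Prkaa1 as fixed examples. Irs1 was added beside Irs2 after its values were seen. Of each list, the called genes or else the 4 of lowest p are named. Further genes (among them Lamtor4, Eif4b, Eef2, Fnip1, Fnip2, G6pc, Ddit3, Cyp4a14 and Fkbp5) were named after their values were seen. TGTTTTG was added to the motifs after the promoters were seen. With 3 arrays per genotype, an exact two-sided permutation test of a single gene cannot go below 0.10, and the number of arrays limits the precision. Promoters came from RefSeq (GRCm38.p6), and plots were made by matplotlib 3.10.9 under Python 3.11.15.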

Additional observations from a re-analysis of the deposited data

How the results depend on the processing

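Of the 221 differences of the 13 transcripts without overlap under 17 alternatives, 218 kept their direction and their side of the threshold, 3 passed the threshold, and none turned. The 3 were Irs2 without control replicate 2 (1.22), and Deptor (-0.58) and Ddit4 (-0.74) with array weights. All 13 were chosen for genotypes that did not overlap, so leaving out or weighting arrays could not turn them. Other intensity filters and a variance trend with intensity leave a difference as it is. None of the 13 was called in the main fit, so keeping their side of the threshold means staying uncalled. Sizes did shift, and Akt1s1 went from -0.83 to -0.12 without control 2 and GHRH-KO 5 together. Counts of calls were 0 in each direction, except 1 higher without control replicate 2, 2 lower with array weights and 1 lower at an adjusted p under 0.10 with no fold limit. Over all 12469 genes tested, the fit with array weights called 248 higher and 288 lower, where the main fit called 98 and 121. Without control replicate 2 these counts were 36 and 46. The count of all genes at an adjusted p under 0.10 is not given here. At an unadjusted p under 0.05, 5 pathway transcripts lay higher after median centring and after another quantile normalization and 4 with the probe set of lowest p, where the main fit had 2. Over all genes, where the main fit had 9.15% higher and 10.1% lower, median centring gave 11.0% higher and 7.94% lower at this mark, and 129 genes called higher and 117 lower. Another quantile normalization gave 10.3% of all genes higher and 8.99% lower, and the lowest p gave 11.9% and 13.6%. Without control 2 and GHRH-KO 5 together, 1 lay higher and 4 lower. Leaving out 1 array at a time gave 0 to 2 higher and 3 to 8 lower, beside 6.71% to 9.21% of all genes higher and 6.99% to 9.79% lower. With no overlap, 8 lay higher and 7 lower after median centring, 7 and 8 after another quantile normalization, and 7 and 12 with the lowest p. When 1 array was left out, 4 to 7 lay higher and 10 to 12 lower, where the main fit had 4 and 9. Groups of 3 and 2 arrays lie apart more easily than groups of 3. The share of all genes without overlap was not computed under these settings.

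The median of the signal carriers was -0.0596 with array weights, -0.0282 with the mean of probe sets, 0.0532 after median centring, -0.15 with the lowest p, -0.0415 without cross-hybridizing probe sets, -0.0526 without control 2 and GHRH-KO 5, and -0.0589 to 0.0266 when 1 array was left out, so its sign is not settled. The median of the inhibitors was -0.0346 with array weights, -0.0561 with the mean of probe sets, and -0.21 to -0.0294 when 1 array was left out. The median of the restrained effectors was -0.21 without cross-hybridizing probe sets, turned to 0.02 with the lowest p, and was -0.12 to 0.01 when 1 array was left out, turning without GHRH-KO 6. For the FOXO target genes, whose alternatives were added after seeing the data, 9 to 14 lay higher when 1 array was left out. Their median was 0.26 with array weights and 0.24 with the mean of probe sets, and 2 genes lay lower with the mean of probe sets and 3 with the lowest p. The cause of these shifts was not tested. No paired analysis was possible because the labels match no GHRH-KO array to a control array.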

Other observations

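Lists that meet the pathway at Ddit4, Trib3 and the sestrins were read in the same way. Of 21 target genes of ATF4, the transcription factor of the integrated stress response, 1 was called. The lipoprotein receptor gene Vldlr rose to 7.78, 8.52 and 8.76 in GHRH-KO mice, against 6.00, 4.86 and 6.04 in control mice (log2 difference 2.72, standard error 0.38, adjusted p = 0.0221 from limma). Without GHRH-KO 5, GHRH-KO 6 or control 3 Vldlr was no longer called (adjusted p = 0.0539, 0.0819 and 0.0601 from limma). Of the 21 genes, 3 lay higher and 5 lay lower with an unadjusted p under 0.05, and their median was -0.03. These counts are 14.3% and 23.8% of the list, beside 9.15% and 10.1% of all genes. Cth, an enzyme of cysteine synthesis, lay at 0.56 and Atf3 at 0.73, whereas Ddit3, which encodes CHOP, lay at -0.42, so ATF4 targets had both signs.

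Of 16 genes that glucocorticoids or fasting induce in liver, none was called, and with an unadjusted p under 0.05 there were 4 higher and 1 lower in GHRH-KO mice. These counts are 25% and 6.25% of the list, beside 9.15% and 10.1% of all genes. The lower one was Ddit4. The higher ones were Ppargc1a, Pck1, Per1 (0.59) and Cyp4a14, a PPARA target of the P450 family. Cyp4a14 read 11.96, 12.04 and 10.54 in GHRH-KO mice, against 6.50, 5.09 and 11.16 in control mice, so control 3 lay at the GHRH-KO level while the other 2 control arrays lay far below. Fkbp5, a glucocorticoid-induced gene, read 6.84, 8.12 and 7.05 in GHRH-KO mice, against 7.83, 7.83 and 7.69 in control mice, where GHRH-KO 5 lay above the controls and the other 2 GHRH-KO arrays below them.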
